A study of Homo sapiens with 12 samples.

Results

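The comparison described here set 12Z cells that received Viperin and insulin together against untreated Control cells, and asked whether the joint change equalled the sum of the changes under Viperin alone and under insulin alone. The Viperin + Insulin group was transfected with pCAG carrying Viperin and then given 100 nM insulin. The Control group was transfected with the empty pCAG vector and given vehicle. Both groups were taken by their labels, and their 6 libraries come from an RNA-seq set of 12. The other libraries enter as the single treatments: the Viperin group (pCAG Viperin and vehicle, 3 libraries) and the Insulin group (empty pCAG and 100 nM insulin, 3 libraries). Each of the 4 groups held 3 libraries, which the study's methods describe as independent experiments. 12Z is an immortalized epithelial line derived from human endometriosis, and all 4 groups were the same line, transfected with FuGene HD, serum starved for 4 h and collected for RNA 24 h after insulin or vehicle. Transfection was transient, so each library mixes cells that took up plasmid with cells that did not. The labels' treatment field names pCAG as the empty vector, whereas their protocol text names pBabe; the pCAG name is used here.

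Insulin binds its receptor tyrosine kinase, INSR, and acts through PI3K and AKT. AKT keeps FOXO transcription factors out of the nucleus, so that genes FOXO drives fall, and it activates mTORC1, which raises ribosome production and, through the transcription factor ATF4, the genes for amino acid uptake and synthesis. Viperin, the product of RSAD2, is a radical SAM enzyme of the endoplasmic reticulum and lipid droplets that is induced by interferon and limits the growth of many viruses, in part by making a nucleotide analogue that ends viral RNA chains. The endometrium carries insulin receptors and responds to insulin as a growth signal.

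The Viperin + Insulin libraries held 37576366, 32543485 and 46889002 read pairs assigned to genes and the Control libraries 25979022, 30599763 and 34226757, and all 12 lay between 25979022 and 46889002. Multimapping pairs made up 9.44 to 13.9% of pairs, with the highest share in Control library 1 and 12.1% in Viperin library 3. The label of an epithelial line was only partly matched by markers: the keratin KRT8 stood at 1313 ± 28.7 CPM in Viperin + Insulin and 1282 ± 52.2 CPM in Control libraries (mean ± SD, n = 3 each; CPM, the library-scaled count), while the epithelial adhesion proteins CDH1 (1.499 ± 0.44 against 0.94 ± 0.14 CPM) and EPCAM (0.60 ± 0.21 against 0.29 ± 0.21 CPM) and the estrogen receptor ESR1 (0.02 ± 0.04 against 0.07 ± 0.06 CPM) were near 0. The mesenchymal filament VIM was high, at 1414 ± 24.8 against 1623 ± 128 CPM. Summed over all 8 epithelial markers, the level was 2572 to 2683 CPM in Viperin + Insulin and 2576 to 2645 CPM in Control libraries. Over all 6 mesenchymal markers it was 3457 to 3599 CPM and 3346 to 3674.5 CPM. Of these 6, 1 was called higher and 1 lower in Viperin + Insulin than in Control libraries (edgeR, adjusted p under 0.05). The higher count was 0 without Viperin + Insulin library 2 and 2 without Control library 1.

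RSAD2, the transfected gene (chromosome 2, 6865557 to 6898239, GRCh38), was at 476, 462 and 609 CPM in the Viperin + Insulin libraries and 591, 665 and 384 CPM in the Viperin libraries. It was at 3.01, 3.82 and 5.19 CPM in the Insulin libraries and 3.48, 2.28 and 2.99 CPM in the Control libraries, so every library matched its label for Viperin. The joint change was 7.48 ± 0.33 on the log2 scale (SE; adjusted p = 3.2e-06, edgeR's quasi-likelihood test with Benjamini-Hochberg adjustment, used for every adjusted p below). Viperin alone gave 7.56, and the Viperin + Insulin and Viperin libraries overlapped. Insulin alone gave 0.47 (adjusted p = 0.78).

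Viperin + Insulin changed 349 of 23041 genes against Control at adjusted p under 0.001, the threshold of the study: 163 were higher and 186 lower, which is 1.51% of the genes tested (0.707% higher and 0.807% lower). Most changes were small. Among the 349 the median size was 0.28 on the log2 scale, 5 were more than 1.5-fold higher and 13 more than 1.5-fold lower, and 340 were protein-coding. For all 349 the 3 Viperin + Insulin libraries lay on one side of the 3 Control libraries, as they did for 21.6% of all genes tested. The same threshold called 43 genes higher and 27 lower under Viperin alone (0.304%), and 93 higher and 179 lower under insulin alone (1.18%). With insulin present in both groups, Viperin raised 86 genes and lowered 23 (0.473%), and with Viperin present in both, insulin raised 94 and lowered 162 (1.11%). The joint counts moved with single libraries: they were 102 higher and 97 lower without Viperin + Insulin library 1, 89 and 101 without library 2, 84 and 110 without library 3, and 295 and 286 without Control library 1.

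Of the 349 genes, 217 had the larger single change under insulin and 132 under Viperin. The 163 higher genes were divided almost evenly, 81 with insulin and 82 with Viperin the larger, while among the 186 lower genes insulin was the larger for 136 and Viperin for 50. The same Control libraries enter the joint change and both single changes, so these values are not independent of each other. At the looser adjusted p under 0.05, which is used for gene lists below, 3.42% of all genes tested were higher and 3.27% lower in Viperin + Insulin than in Control libraries. Under insulin alone the shares were 2.53% higher and 2.96% lower, and under Viperin alone 1.25% higher and 1.04% lower. These shares are over all 23041 genes, of which 9364 averaged 10 CPM or more. Genes at low counts are harder to call, so a share above these does not by itself set a list of well-counted genes apart. The median log2 change of all genes was 0.00 in the joint comparison.

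**Figure D1:**
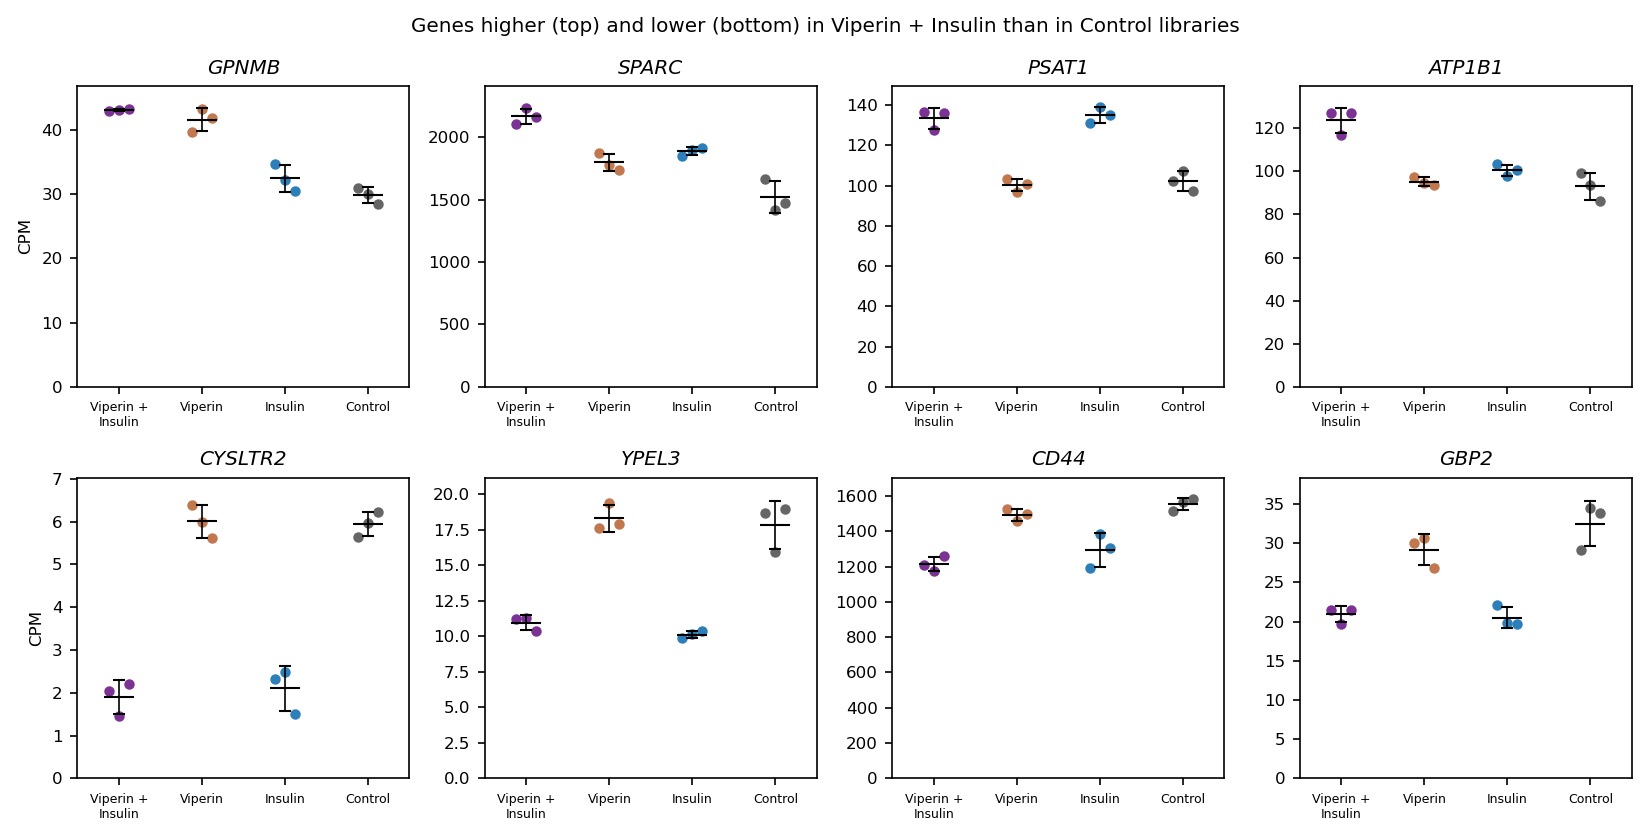
Library-scaled counts (CPM, y axis) of 8 genes in the Viperin + Insulin, Viperin, Insulin and Control libraries. Dots are the 3 libraries of a group and bars the mean ± SD. GPNMB was high wherever Viperin was given, PSAT1 wherever insulin was given, and CYSLTR2 and YPEL3 were low in the 6 libraries with insulin, whereas ATP1B1 was highest in the 3 joint libraries.

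The insulin receptor itself was where the joint group stood between the single treatments. INSR was at 23.5, 23.7 and 21.2 CPM in Viperin + Insulin, 26.2, 29.0 and 31.0 CPM in Viperin, 18.9, 17.9 and 18.3 CPM in Insulin and 26.4, 25.6 and 21.7 CPM in Control libraries. It fell by 0.41 under insulin alone (log2; adjusted p = 2.2e-05) and was at 0.23 under Viperin alone (adjusted p = 0.051), and the joint change was -0.11 (adjusted p = 0.44). IGF1R, the related receptor for insulin-like growth factor, behaved likewise: 95.03, 97.8 and 98.4 CPM in the joint group, 119, 111 and 112 CPM in Viperin, 82.0, 79.8 and 83.3 CPM in Insulin and 106, 97.4 and 95.7 CPM in Control libraries. IGF1R fell by 0.29 under insulin (adjusted p = 1.1e-06), rose by 0.19 under Viperin (adjusted p = 0.0027) and stood at -0.04 in the joint comparison (adjusted p = 0.73). Of 45 genes for the receptor, PI3K, AKT and mTOR components, 4 rose and 4 fell (8.89% each way), and the list's median was -0.02. The count of higher members was 2 without Viperin + Insulin library 3, and that of lower members 7 without Control library 1. The 4 higher were PIK3R3, a regulatory subunit of PI3K (0.30, adjusted p = 4.8e-06), IGF2R, which clears IGF2 (0.21), PHLPP2 and PDPK1. The 4 lower were the adaptor IRS2 (-0.24, adjusted p = 0.00059), the PI3K inhibitor PIK3IP1, RICTOR and AKT1.

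Among genes that FOXO factors drive, or that mark quiescent cells, those called in the joint group were all lower, though most members did not pass. Of 31 such genes tested, 10 fell and none rose (32.3% lower, against 3.27% of all genes), with a median of -0.15. Insulin alone lowered 14 and raised 1 (median -0.21), and Viperin alone raised 2 and lowered none (median 0.04). YPEL3, a gene known to slow growth (chromosome 16, 30092314 to 30096915), was at 11.2, 11.3 and 10.4 CPM in Viperin + Insulin, 17.6, 19.4 and 17.9 CPM in Viperin, 9.88, 10.1 and 10.4 CPM in Insulin and 18.7, 15.9 and 18.9 CPM in Control libraries. The insulin-treated libraries did not overlap the others. Its joint change was -0.70 ± 0.08 (adjusted p = 4.7e-10), beside -0.82 under insulin and 0.04 under Viperin. PIK3IP1 was at 9.01, 7.28 and 7.09 CPM in Viperin + Insulin, 10.9, 13.1 and 12.95 CPM in Viperin, 6.60, 6.87 and 5.76 CPM in Insulin and 11.3, 11.3 and 9.66 CPM in Control libraries. It changed by -0.46 ± 0.10 jointly (adjusted p = 0.00082), -0.74 under insulin and 0.19 under Viperin. CCNG2, an atypical cyclin of resting cells, was at 81.3, 89.2 and 85.0 CPM in Viperin + Insulin and 107, 104 and 103 CPM in Control libraries (-0.30, adjusted p = 3.5e-07). The ubiquitin ligase FBXO32 also fell, to 10.5, 10.5 and 10.8 CPM in Viperin + Insulin against 13.8, 16.3 and 16.1 CPM in Control libraries (-0.54, adjusted p = 9.3e-07). TXNIP, which restrains glucose uptake, was at 38.3, 39.2 and 36.6 CPM in the joint group, against 44.5, 59.3 and 54.6 CPM in Control (-0.48 ± 0.09, adjusted p = 0.0054). Neither single treatment passed for TXNIP (-0.20 under insulin, adjusted p = 0.27, and -0.10 under Viperin, adjusted p = 0.73). The other called members were PINK1, CITED2, IRS2, FOXO4 and MXD4.

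FOXO factors bind DNA at the letters GTAAACA, and the promoters of 3 of the fallen genes are shown because they hold these letters. Each window is RefSeq sequence of GRCh38.p14, written from 250 bases before the transcription start through the first 50 bases of the transcript, on the gene's own strand, with GTAAACA or its reverse complement TGTTTAC in capitals. YPEL3 (chr16:30096164-30096463, minus strand), PIK3IP1 (chr22:31292439-31292738, minus strand) and TXNIP (chr1:145996530-145996829, minus strand) read:
YPEL3: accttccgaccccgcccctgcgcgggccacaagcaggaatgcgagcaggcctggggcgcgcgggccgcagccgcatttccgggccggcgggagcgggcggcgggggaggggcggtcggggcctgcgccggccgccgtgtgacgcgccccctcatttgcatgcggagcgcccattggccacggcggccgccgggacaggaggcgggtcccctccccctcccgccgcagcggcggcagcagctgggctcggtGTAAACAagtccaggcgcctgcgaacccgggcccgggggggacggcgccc
PIK3IP1: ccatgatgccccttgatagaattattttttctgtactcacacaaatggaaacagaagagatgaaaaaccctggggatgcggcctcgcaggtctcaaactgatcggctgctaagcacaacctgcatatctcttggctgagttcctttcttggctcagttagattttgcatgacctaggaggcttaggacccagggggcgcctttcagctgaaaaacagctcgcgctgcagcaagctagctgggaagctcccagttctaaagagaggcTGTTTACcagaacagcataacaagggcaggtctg
TXNIP: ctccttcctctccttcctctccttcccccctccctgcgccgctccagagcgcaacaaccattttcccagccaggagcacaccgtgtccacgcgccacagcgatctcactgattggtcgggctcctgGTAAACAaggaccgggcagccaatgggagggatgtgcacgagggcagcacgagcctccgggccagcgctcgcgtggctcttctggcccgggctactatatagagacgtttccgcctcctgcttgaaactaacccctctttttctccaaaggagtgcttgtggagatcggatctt
The match began at base 251 of the window, the start site itself, in YPEL3, at base 267 in PIK3IP1 and at base 127 in TXNIP. Searching both strands, 4 of the 25 listed genes with a window held the letters (16%, YPEL3, PIK3IP1, TXNIP and FOXO4), against 1145 of 27305 genes overall (4.19%), and all 4 were among the members that fell. Of the genes called at adjusted p under 0.001, 13 of 136 lower genes with a window held GTAAACA (9.56%) and 2 of 129 higher genes did (1.55%). The motif was chosen after the values were seen, and a match in a window is a description of its letters, not of a bound site.

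Some genes of amino acid synthesis and uptake were higher in the joint group. PSAT1, an enzyme of serine synthesis, was at 136, 128 and 136 CPM in Viperin + Insulin, 103, 97.1 and 101 CPM in Viperin, 131, 139 and 135 CPM in Insulin and 102, 107 and 97.2 CPM in Control libraries. The 6 libraries with insulin lay above the 6 without. The joint change was 0.38 ± 0.04 (adjusted p = 1e-10), beside 0.40 under insulin and -0.03 under Viperin. SLC3A2 and SLC7A5 form the transporter of large neutral amino acids. SLC3A2 was at 148, 157 and 156 CPM in the joint group, 122, 120.1 and 125 CPM in Viperin, 163, 177 and 175 CPM in Insulin and 136, 128 and 116 CPM in Control libraries, a joint change of 0.28 ± 0.04 (adjusted p = 4.3e-06) beside 0.44 under insulin and -0.05 under Viperin. SLC7A5 was at 59.9, 61.8 and 62.8 CPM in the joint group, against 49.2, 49.5 and 50.01 CPM in Control libraries (0.31, adjusted p = 9e-07, with 0.37 under insulin and -0.09 under Viperin). Of 23 serine and one-carbon enzymes 6 rose (PSAT1, MAT2A, MTR, CTH, SHMT2 and PSPH) and 1 fell. Of 22 amino acid transporters 5 rose (SLC7A5, SLC3A2, SLC36A1, SLC1A3 and SLC7A6) and 1, SLC43A1, fell. CTH was no longer called without Control library 3 (adjusted p = 0.106), nor SLC1A3 without Control library 2 (adjusted p = 0.301). Insulin alone raised 3 and lowered 2 members of each list, and Viperin alone called none. The serine count was 3 without Viperin + Insulin library 1, and its 1 lower member was lost without Viperin + Insulin library 2 or Control library 3. The transporter count was 3 without Viperin + Insulin library 3, without Control library 2 and in DESeq2 without its independent filtering. The fall of SLC43A1 was not called in that DESeq2 fit, in limma-voom, in the fit of only the Viperin + Insulin and Control libraries, or without Viperin + Insulin library 1 or 3 or Control library 1.

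Some members of the ATF4 pathway and some chaperones of the endoplasmic reticulum rose, and none fell with all libraries in the fit (1 ATF4 pathway gene was called lower without Control library 1 or 2). ATF4 was at 171, 161 and 169 CPM in Viperin + Insulin, 145, 141 and 157 CPM in Viperin, 151, 154 and 149 CPM in Insulin and 142, 135 and 135 CPM in Control libraries. It rose by 0.29 jointly (adjusted p = 1.7e-07), with 0.14 under insulin and 0.10 under Viperin. DDIT4, an inhibitor of mTORC1, was at 51.5, 54.3 and 51.3 CPM in the joint group, 41.4, 41.6 and 39.2 CPM in Viperin, 51.7, 44.7 and 48.3 CPM in Insulin and 38.4, 39.5 and 36.2 CPM in Control libraries. Its joint change was 0.46 (adjusted p = 5.5e-10), beside 0.34 and 0.10 for insulin and Viperin. Of 22 ATF4 pathway genes tested 5 rose (median of the list 0.13): DDIT4, VLDLR (0.42), ATF4, XPOT (0.20) and the kinase EIF2AK3 (0.18). Of 33 chaperone and unfolded protein response genes 6 rose, among them HSPA5, the main chaperone of the endoplasmic reticulum, at 435, 448 and 449 CPM in the joint group against 373, 408 and 367 CPM in Control (0.22, adjusted p = 1.3e-05). HSPA5 stood at 0.29 under insulin and 0.02 under Viperin, whereas the disulfide isomerase PDIA4 rose by 0.18 jointly (adjusted p = 0.00022) with 0.08 under insulin (adjusted p = 0.21) and 0.16 under Viperin (adjusted p = 0.0028).

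ATF4 dimers bind the letters TGATGNAA, and the promoters of SLC3A2 and of MARS1, the tRNA synthetase for methionine, are shown as called members of these lists that hold the letters. The windows are RefSeq sequence of GRCh38.p14, laid out as above, at chr11:62881449-62881748 (plus strand) for SLC3A2 and chr12:57487818-57488117 (plus strand) for MARS1. Capitals mark the match, which in both windows lies on the opposite strand and is printed as its reverse complement:
SLC3A2: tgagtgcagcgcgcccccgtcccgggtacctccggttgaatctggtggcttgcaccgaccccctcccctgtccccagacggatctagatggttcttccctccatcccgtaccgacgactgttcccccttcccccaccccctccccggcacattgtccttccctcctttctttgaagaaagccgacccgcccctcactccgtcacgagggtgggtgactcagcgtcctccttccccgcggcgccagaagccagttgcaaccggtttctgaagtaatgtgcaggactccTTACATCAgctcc
MARS1: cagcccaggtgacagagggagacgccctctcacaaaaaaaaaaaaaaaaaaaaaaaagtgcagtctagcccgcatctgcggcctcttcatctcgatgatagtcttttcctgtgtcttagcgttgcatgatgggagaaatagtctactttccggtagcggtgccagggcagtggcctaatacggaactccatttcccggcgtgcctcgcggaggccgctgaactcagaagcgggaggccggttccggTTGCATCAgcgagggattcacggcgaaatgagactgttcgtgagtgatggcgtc
The match began at base 288 of the window in SLC3A2 and at base 247 in MARS1. MARS1 was at 177, 179 and 188 CPM in Viperin + Insulin and 156, 161 and 160.2 CPM in Control libraries (0.19 ± 0.04, adjusted p = 0.00028), with 0.23 under insulin and -0.03 under Viperin. On either strand, the letters stood in 6 of 19 amino acid transporters with a window (31.6%), 7 of 16 tRNA synthetases (43.8%), 6 of 21 ATF4 pathway genes (28.6%) and 1 of 18 serine and one-carbon enzymes (5.56%), against 1217 of 27305 genes (4.46%). Of these motif-bearing members SLC1A3, SLC3A2 and MARS1 rose and no other was called, none of the ATF4 pathway genes among them. The rise of SLC1A3 was not called without Control library 2 (adjusted p = 0.301). Of the genes called at adjusted p under 0.001, 7 of 129 higher genes with a window held the letters (5.43%) and 4 of 136 lower genes did (2.94%). Of the 20 tRNA synthetases tested 2 rose jointly, MARS1 and YARS1, and insulin alone raised 6. The joint count was 1 without any one of the 3 Viperin + Insulin libraries. This motif too was chosen after the values were seen.

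The called genes among those that build ribosomes were all higher, and the called ribosomal protein genes all lower, with most members of both lists not passing. Of 44 ribosome biogenesis genes, 11 rose and none fell (25%, median 0.09). Insulin alone raised 18 (median 0.12), and Viperin alone raised 1 and lowered 2 (median -0.04). NOP56, a core protein of the particles that modify ribosomal RNA, was at 136, 132 and 138 CPM in the joint group, 116, 118 and 121 CPM in Viperin, 126, 127 and 122 CPM in Insulin and 113, 113 and 112 CPM in Control libraries (0.27, adjusted p = 6.6e-07). The next were UTP15 (0.28), DDX21 (0.16) and PNO1 (0.21). The count of 11 was 4 without Viperin + Insulin library 2, Viperin + Insulin library 3 or Control library 2, 5 without Viperin + Insulin library 1, 6 without Insulin library 3 and 7 without Viperin library 1 or Control library 3. It was 6 in DESeq2 without independent filtering, 7 in limma-voom, 5 in the fit of only the Viperin + Insulin and Control libraries and 7 without edgeR's robust option, and 1 member was called lower without Control library 1. Of 78 ribosomal protein genes, 25 fell and none rose, with a median of -0.09, beside -0.02 under insulin (5 lower) and -0.08 under Viperin (14 lower). The largest test statistics were for RPL11 (-0.23, adjusted p = 1.5e-05), RPS2 (-0.24), RPL13A (-0.19) and RPL12 (-0.21), and the count was 15 without Viperin + Insulin library 2 and 42 without Control library 3. Without Viperin + Insulin library 2 there was 1 higher member, and without Control library 1 there were 2. EEF1A1, which carries aminoacyl-tRNA to the ribosome, was at 4913, 4611 and 4717 CPM in Viperin + Insulin, 5420.1, 5361 and 5181 CPM in Viperin, 4967, 4995 and 5005 CPM in Insulin and 5783, 5725 and 5942 CPM in Control libraries (-0.29, adjusted p = 6.7e-10). Ribosomal protein genes and EEF1A1 have many processed copies in the genome, and reads that match several places are not counted, so their levels are uncertain.

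The receptor CYSLTR2, which binds cysteinyl leukotrienes, had the largest fall among called genes with a mean of at least 1 CPM over the 6 libraries. It was at 2.05, 1.46 and 2.21 CPM in Viperin + Insulin, 6.39, 6.003 and 5.63 CPM in Viperin, 2.33, 2.48 and 1.503 CPM in Insulin and 5.64, 5.97 and 6.22 CPM in Control libraries. The joint change was -1.62 ± 0.15 (adjusted p = 5.8e-13), beside -1.497 under insulin and 0.02 under Viperin. ALOX15, a lipoxygenase of arachidonic and linoleic acid, was at 0.920, 1.21 and 0.552 CPM in Viperin + Insulin, 2.39, 3.31 and 2.97 CPM in Viperin, 0.767, 0.709 and 0.822 CPM in Insulin and 2.47, 1.25 and 2.30 CPM in Control libraries. Its joint change was -1.20 ± 0.24 (adjusted p = 0.00049; 0.0208 without Viperin + Insulin library 3), beside -1.38 under insulin and 0.52 under Viperin (adjusted p = 0.2). PTGES, a prostaglandin E synthase, fell to 8.54, 10.5 and 9.94 CPM in the joint group, against 15.3, 13.3 and 12.7 CPM in Control (-0.51, adjusted p = 2.4e-05). These were the 3 members that fell of 18 leukotriene and lipoxygenase genes tested, and none rose. ALOX5, ALOX5AP and LTC4S, which make the leukotrienes that CYSLTR2 binds, had at most 2 counts in any library. ZNF704, a zinc finger protein, showed the next largest fall after ALOX15, with 2.71, 2.61 and 2.68 CPM in the joint group and 5.95, 5.54 and 4.19 CPM in Control (-0.96, adjusted p = 6.1e-07).

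Among genes that followed Viperin, GPNMB, a glycoprotein of lysosomes and melanosomes (chromosome 7, 23235967 to 23275108), was at 43.0, 43.0 and 43.2 CPM in Viperin + Insulin and 39.6, 43.3 and 41.8 CPM in Viperin libraries. It was at 34.7, 32.2 and 30.4 CPM in Insulin and 30.9, 30.0 and 28.4 CPM in Control libraries, with no overlap between libraries with and without Viperin. The joint change was 0.53 ± 0.05 (adjusted p = 4.3e-11), beside 0.48 under Viperin and 0.13 under insulin. Of 43 lysosome and autophagy genes 5 rose, led by GPNMB, PSAP (0.20) and the proton pump subunit ATP6V1A (0.19), and 3 fell, led by the protease CTSD (-0.19). Viperin alone raised 9 and lowered none, and insulin alone raised 1 and lowered 5. The joint count of 5 was 3 without Viperin + Insulin library 1 or Control library 3 and 9 without Control library 1, and that of 3 was 1 without Viperin + Insulin library 3 or Control library 3. CTSD was no longer called without Control library 3 (adjusted p = 0.0575).

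Matrix genes were called higher more often than lower. SPARC, a matrix protein that binds collagen (chromosome 5, 151661096 to 151686975), was at 2109.6, 2233 and 2165.5 CPM in Viperin + Insulin, 1877, 1781 and 1741 CPM in Viperin, 1852, 1899 and 1914 CPM in Insulin and 1666, 1420.0 and 1473 CPM in Control libraries. The joint libraries lay above all others, at 0.51 ± 0.04 over Control (adjusted p = 7.4e-11), with 0.31 under insulin and 0.24 under Viperin. SERPINH1, the collagen chaperone, was at 499, 504 and 487 CPM in the joint group, 430.0, 427 and 442 CPM in Viperin, 449, 470.5 and 462 CPM in Insulin and 414, 384 and 395 CPM in Control libraries (0.32, adjusted p = 4.3e-10, with 0.21 and 0.12 under insulin and Viperin). The protease ADAM12 was at 117, 118 and 117 CPM in the joint group against 98.2, 88.2 and 86.7 CPM in Control (0.37, adjusted p = 5.9e-10), with 0.17 under insulin and 0.29 under Viperin. Of 63 matrix glycoproteins and enzymes 17 rose, 4 fell and 42 did not pass. Insulin alone raised 6 and lowered 9, and Viperin alone raised 13 and lowered none, with list medians of 0.07 jointly, -0.05 under insulin and 0.10 under Viperin. The members that fell were SPOCK1 (-0.23), LTBP3 (-0.28), CCDC80 and LOX (-0.14).

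Among collagens and basement membrane genes, those called under Viperin alone were all higher and those called under insulin alone all lower, though most members did not pass. Viperin alone raised 10 of 38 and lowered none (median 0.19), insulin alone lowered 8 and raised none (median -0.04), and jointly 9 rose and 1 fell (median 0.13). COL4A1 was at 149, 157 and 159.5 CPM in the joint group, 149.5, 142 and 144 CPM in Viperin, 127, 138 and 133 CPM in Insulin and 132, 109 and 123 CPM in Control libraries (0.36, adjusted p = 2.4e-06). COL4A5 rose under Viperin (0.36, adjusted p = 1.4e-08) and fell under insulin (-0.18, adjusted p = 0.0024), and the joint change was 0.11 (adjusted p = 0.12), at 93.8, 92.7 and 93.7 CPM in the joint group against 89.9, 82.3 and 88.1 CPM in Control. CCDC80, a matrix protein, showed the same opposition with insulin the larger: 615, 628 and 646 CPM in the joint group, 825, 865 and 796 CPM in Viperin, 558, 542 and 527 CPM in Insulin and 703, 654 and 752 CPM in Control libraries. Its changes were -0.16 jointly (adjusted p = 0.0043), -0.38 under insulin and 0.24 under Viperin. The 1 collagen that fell was COL8A1, at 18.9, 22.0 and 22.3 CPM in the joint group against 29.8, 29.0 and 28.1 CPM in Control (-0.46, adjusted p = 3.5e-07, with -0.41 under insulin and -0.03 under Viperin). The count of 9 was 5 without Viperin + Insulin library 2 or library 3, 2 without Control library 3, and 14 with Control library 1 and Viperin library 3 both left out, and 2 members fell without Control library 2. Of 8 fibroblast markers 3 rose, the collagens COL1A1, COL1A2 and COL3A1, and none fell. No marker was called without Control library 3, and 5 were without edgeR's robust option. Their summed level was 4806 to 5041 CPM in Viperin + Insulin, 4809 to 5002 CPM in Viperin, 4118 to 4187 CPM in Insulin and 3704 to 4491 CPM in Control libraries. The 3 that rose are also on the collagen list, and the part of such cells in the result was not tested. In bulk RNA, fewer cells of a kind and less RNA per cell cannot be told apart.

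Proteasome genes called under insulin alone were all higher and those called under Viperin alone all lower. Insulin alone raised 22 of 37 and lowered none (median 0.14), Viperin alone lowered 12 and raised none (median -0.11), and in the joint group 2 rose (5.41%, against 3.42% of all genes) with a median of 0.03. PSMC1, an ATPase of the regulatory particle, was at 93.5, 87.0 and 96.1 CPM in Viperin + Insulin, 79.4, 81.8 and 78.2 CPM in Viperin, 103, 112 and 106 CPM in Insulin and 88.4, 96.3 and 98.9 CPM in Control libraries. The joint and Control libraries overlapped (-0.04, adjusted p = 0.75), whereas insulin alone gave 0.17 (adjusted p = 0.0052) and Viperin alone -0.25 (adjusted p = 0.00024). PSMD11, a scaffold subunit, rose jointly by 0.15 (adjusted p = 0.0029), at 308, 307 and 315 CPM in the joint group, 245, 249.7 and 250.1 CPM in Viperin, 306, 323 and 326 CPM in Insulin and 270.4, 284 and 283 CPM in Control libraries. The other called member was the core subunit PSMA2 (0.29, adjusted p = 0.036). The count of 2 was 1 without Viperin + Insulin library 1 or 2 or without Control library 2 or 3.

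**Figure D2:**
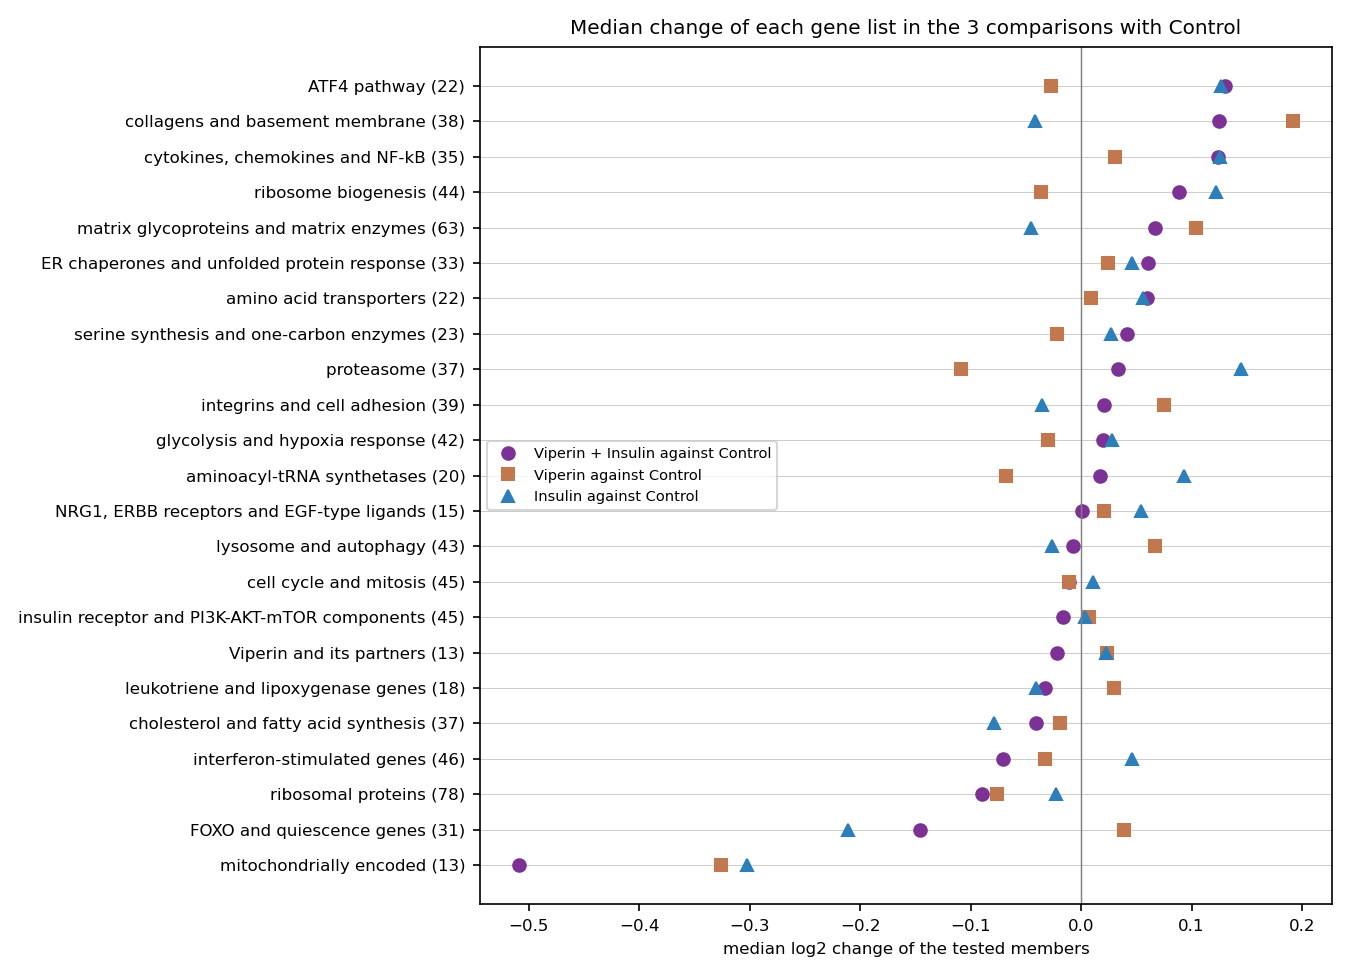
Median log2 change against Control (x axis) of the tested members of each gene list (y axis, members tested in brackets) in the Viperin + Insulin, Viperin and Insulin groups. The proteasome list stood at 0.14 under insulin and -0.11 under Viperin and at 0.03 with both, whereas the mitochondrially encoded list was below 0 in all 3 comparisons, at -0.51 with both.

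Genes of the mitochondrial genome were the list with the largest share of called members. Of 13 protein genes 11 fell and none rose, with a median of -0.51, beside -0.30 under insulin (1 lower) and -0.33 under Viperin (3 lower). MT-ND4, a subunit of respiratory complex I, was at 4895, 5277 and 5306 CPM in Viperin + Insulin, 6517, 6299 and 5806 CPM in Viperin, 6556, 6345 and 6500.1 CPM in Insulin and 7239.9, 7767 and 8959.6 CPM in Control libraries (-0.63, adjusted p = 0.0012). MTATP6P1, a nuclear copy that is nearly identical to its mitochondrial gene and whose level is therefore uncertain, had the smallest p of the comparison, at 206, 214 and 222 CPM in the joint group, 256, 249 and 226 CPM in Viperin, 259, 263 and 265 CPM in Insulin and 296, 305 and 306 CPM in Control (-0.50 ± 0.04, adjusted p = 2.3e-16). The share of assigned reads on mitochondrially encoded genes was 4.28 to 4.52% in Viperin + Insulin, 4.81 to 5.34% in Viperin, 5.14 to 5.18% in Insulin and 5.59 to 6.64% in Control libraries. The joint libraries lay below all others in this share.

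Interferon-stimulated genes other than RSAD2 did not rise at this threshold with Viperin and insulin together. Of 46 tested, none rose and 6 fell, with a median of -0.07, beside 0.05 under insulin (none called) and -0.03 under Viperin (1 higher, 3 lower). HERC5, the ligase that attaches ISG15 to proteins, was at 13.3, 13.8 and 14.5 CPM in the joint group, 16.6, 17.0 and 17.9 CPM in Viperin, 19.7, 18.2 and 21.4 CPM in Insulin and 22.5, 18.9 and 19.6 CPM in Control libraries (-0.55, adjusted p = 1.3e-07, with -0.04 under insulin and -0.24 under Viperin). IFIT2, which binds viral RNA, was at 54.0, 56.8 and 57.5 CPM in the joint group, 54.7, 57.4 and 65.5 CPM in Viperin, 71.0, 71.3 and 79.0 CPM in Insulin and 72.6, 70.9 and 77.7 CPM in Control (-0.39, adjusted p = 1.4e-06, with -0.32 under Viperin). OASL, an RNA sensor cofactor, was at 14.3, 16.7 and 18.3 CPM in the joint group against 26.7, 21.4 and 26.6 CPM in Control (-0.60, adjusted p = 0.0017), with 0.23 under insulin and -0.44 under Viperin. The others were SAMD9 (-0.21), IFITM3 (-0.19) and IFIT3 (-0.25). GBP2, a guanylate-binding protein that is not on this list, followed insulin, at 21.5, 19.7 and 21.5 CPM in the joint group, 30.0, 30.6 and 26.9 CPM in Viperin, 22.1, 19.8 and 19.7 CPM in Insulin and 29.1, 34.4 and 33.9 CPM in Control libraries (-0.64, adjusted p = 4.3e-11, with -0.67 under insulin and -0.16 under Viperin).

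Glycolysis and hypoxia genes moved both ways, 10 higher and 5 lower of 42. The higher members with the smallest p were DDIT4, the vasodilator peptide ADM, VEGFA, which drives vessel growth, and HK2, which phosphorylates glucose (0.28, adjusted p = 1.7e-05). The lower ones were MXI1, NDRG1, GAPDH, TPI1 and BNIP3L. Without Viperin + Insulin library 3 the counts were 6 and 3, and the count of 5 was also 3 without Viperin + Insulin library 1 or 2, Insulin library 3 or Control library 3. Of 39 integrin and adhesion genes 6 rose and 4 fell. CD44, the hyaluronan receptor, fell to 1206, 1177 and 1258 CPM in Viperin + Insulin, with 1524, 1458 and 1498 CPM in Viperin, 1193, 1383 and 1304 CPM in Insulin and 1516, 1564 and 1581 CPM in Control libraries (-0.36, adjusted p = 4.7e-10), and the junction protein JUP fell by 0.32 (adjusted p = 2.2e-08). The higher count was 10 without Control library 1 and 3 without Control library 2. Of 37 genes of cholesterol and fatty acid synthesis 1, STARD4, rose and 6 fell, led by the sterol reductase TM7SF2 at 84.4, 81.9 and 77.7 CPM in the joint group against 103, 100.4 and 107 CPM in Control (-0.35, adjusted p = 3.2e-09). That count of 6 was 3 and 2 without Viperin + Insulin libraries 2 and 3 and 10 without Control library 1, and STARD4 was not called without Control library 3 (adjusted p = 0.0763).

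**Figure D3:**
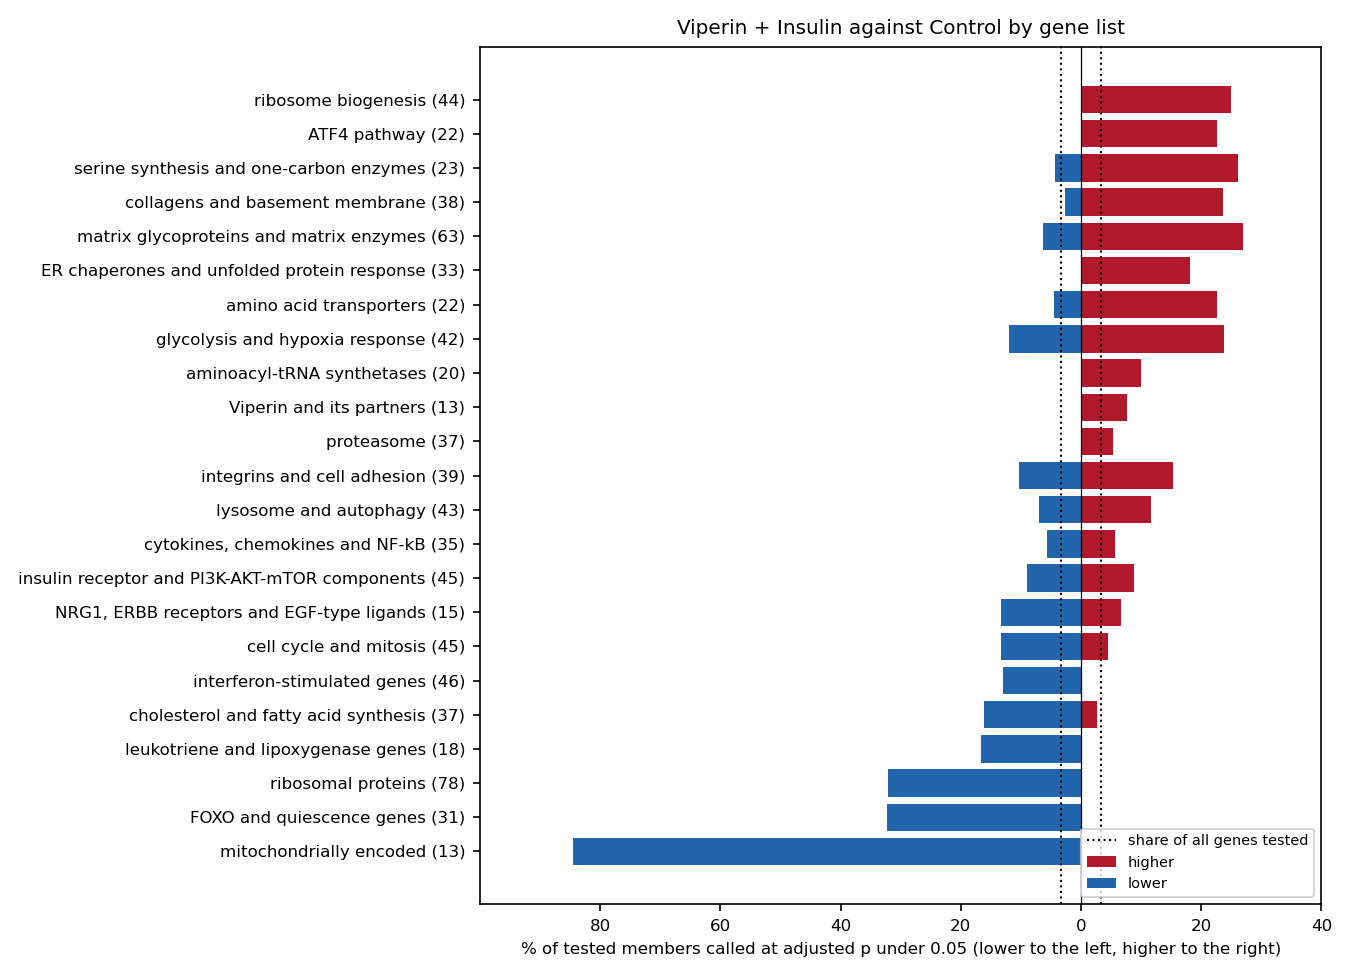
Share of the tested members of each gene list (y axis, members tested in brackets) that were higher (right) or lower (left) in Viperin + Insulin than in Control libraries at adjusted p under 0.05. Dotted lines mark the shares of all genes tested, 3.42% higher and 3.27% lower, a set that includes many genes at low counts. Ribosome biogenesis reached 25% higher and FOXO and quiescence genes 32.3% lower.

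The largest rises among called genes with a mean of at least 1 CPM were, after RSAD2, those of CLCA2, KDR and KBTBD8. CLCA2, a p53-responsive membrane protein of epithelia, was at 10.4, 9.71 and 11.3 CPM in Viperin + Insulin, 7.85, 7.27 and 8.35 CPM in Viperin, 6.82, 8.61 and 7.91 CPM in Insulin and 7.73, 6.37 and 5.89 CPM in Control libraries, a joint change of 0.67 ± 0.10 (adjusted p = 2.2e-06). KDR, a receptor for VEGF, was at 6.12, 6.95 and 6.43 CPM in the joint group, 6.54, 4.99 and 5.63 CPM in Viperin, 4.60, 4.23 and 5.93 CPM in Insulin and 4.48, 4.12 and 3.71 CPM in Control libraries (0.67 ± 0.12, adjusted p = 0.00011, and 0.00278 without Control library 3). KDR was the 1 of 4 endothelial markers that rose, and CDH5, another, was at 2.41 ± 0.31 CPM in the joint group and 2.58 ± 0.19 CPM in Control libraries (SD, n = 3 each). KBTBD8, an adaptor of a ubiquitin ligase, followed insulin, with 0.65 jointly (adjusted p = 0.00055, and 0.00833 without Control library 3), 0.86 under insulin and 0.13 under Viperin.

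Others among the genes with the smallest p showed each pattern again. IFRD1, an insulin-led riser and a transcriptional coregulator, was at 40.9, 40.2 and 42.1 CPM in Viperin + Insulin, 31.0, 31.1 and 33.5 CPM in Viperin, 40.7, 39.1 and 36.2 CPM in Insulin and 32.7, 30.1 and 28.0 CPM in Control libraries (0.45, adjusted p = 2.1e-08). The carboxypeptidase CPA4 rose with Viperin, at 131, 134 and 128 CPM in the joint group, 119.8, 111 and 109.7 CPM in Viperin, 97.1, 92.3 and 93.4 CPM in Insulin and 102, 91.3 and 82.4 CPM in Control libraries (0.52, adjusted p = 5.3e-09, with 0.31 under Viperin and 0.04 under insulin). With Viperin present in both groups, insulin also raised CPA4, by 0.20 (adjusted p = 0.0076). The transcription factor ETS1 was at 103, 105 and 104 CPM in the joint group against 87.1, 81.0 and 79.0 CPM in Control (0.34, adjusted p = 1.8e-08), and neither single change passed (0.06 under insulin, adjusted p = 0.58, and 0.13 under Viperin, adjusted p = 0.1). Of the lower genes, FAXDC2, a lipid hydroxylase-like protein, followed insulin, at 28.6, 26.4 and 25.3 CPM in the joint group, 39.9, 39.3 and 38.1 CPM in Viperin, 24.0, 22.9 and 21.6 CPM in Insulin and 34.3, 37.1 and 38.7 CPM in Control libraries (-0.46, adjusted p = 2.1e-08). So did ABLIM3, an actin-binding protein, at 64.5, 63.0 and 65.2 CPM in the joint group against 79.0, 82.1 and 83.3 CPM in Control (-0.34, adjusted p = 2.4e-08, with -0.30 under insulin and 0.01 under Viperin). MT1E, a metallothionein with close paralogs that could share its reads, was at 57.2, 61.0 and 58.4 CPM in the joint group, 65.9, 70.4 and 73.7 CPM in Viperin, 63.2, 71.8 and 70.3 CPM in Insulin and 76.1, 75.6 and 75.9 CPM in Control (-0.37, adjusted p = 2e-08).

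The question of additivity was put to each gene as the departure, the joint log2 change minus the sum of the log2 changes under Viperin alone and insulin alone. A departure of 0 means that the 2 fold changes multiplied. No gene passed adjusted p under 0.001 or under 0.05 (0% of 23041; edgeR; smallest adjusted p 0.0532). That result at 0.05 moved with the libraries and the filter. The count was 24 without Insulin library 1, 15, 12 and 14 without Control libraries 1, 2 and 3, and 14 and 4 without Viperin libraries 3 and 1. It was 10 without Viperin + Insulin library 2, 37 with no filter on low counts and 7 with unstranded counts. None passed 0.05 without Viperin + Insulin library 1 or 3, Viperin library 2 or Insulin library 2 or 3, or with edgeR's own filter on low counts. At 0.001, 5 genes passed without Insulin library 1, 3 without Control library 3, 1 when either Control library 1 or Viperin library 3 was dropped, and 4 with no filter. By edgeR's p before adjustment, 1297 of 23041 genes lay under 0.05, a cut that a share of about 0.05 would pass with no departure in any gene. DESeq2 and limma-voom called none at adjusted p under 0.001 or 0.05 either, and put 865 and 1343 genes under 0.05 before adjustment. On the linear scale, where differences in CPM rather than fold changes add, none was called and 1269 lay under 0.05 before adjustment. The 349 genes called jointly were picked by the joint change, which is itself a part of the departure. Their values are therefore no independent test of additivity. For these 349, the median joint change of the higher genes was 0.28 and the median sum of their single changes 0.27. For the lower genes these medians were -0.27 and -0.30. The departure had a median size of 0.06 among the 349, 0.14 among all genes tested and 0.05 among the 9364 that averaged 10 CPM or more.

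A missed threshold does not show additivity, so the size of departure that these libraries allow is given by its interval. The 95% interval of the departure had a median half-width of 0.13 on the log2 scale among the 349 genes. It held 0 for 300 of them, lay above 0 for 38 and below 0 for 11. The 349 were picked by their joint change, so these counts describe a selected set. For 293 of the 349 the whole interval stayed within a 1.25-fold difference in either direction, as it did for 8495 of all 23041 genes and 8284 of the 9364 that averaged 10 CPM or more. Over all 23041 genes it held 0 for 21744, lay above 0 for 744 and below 0 for 553. For CYSLTR2 the sum of the single changes was -1.48 and the departure -0.14 (interval -0.56 to 0.28). For PSAT1 the sum was 0.38 and the departure 0.01 (-0.11 to 0.12), for SPARC 0.56 and -0.04 (-0.16 to 0.07), for GPNMB 0.61 and -0.07 (-0.23 to 0.08), and for CCDC80 -0.14 and -0.02 (-0.13 to 0.09). RSAD2 itself had a wide interval, -1.93 to 0.83 around -0.55.

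**Figure D4:**
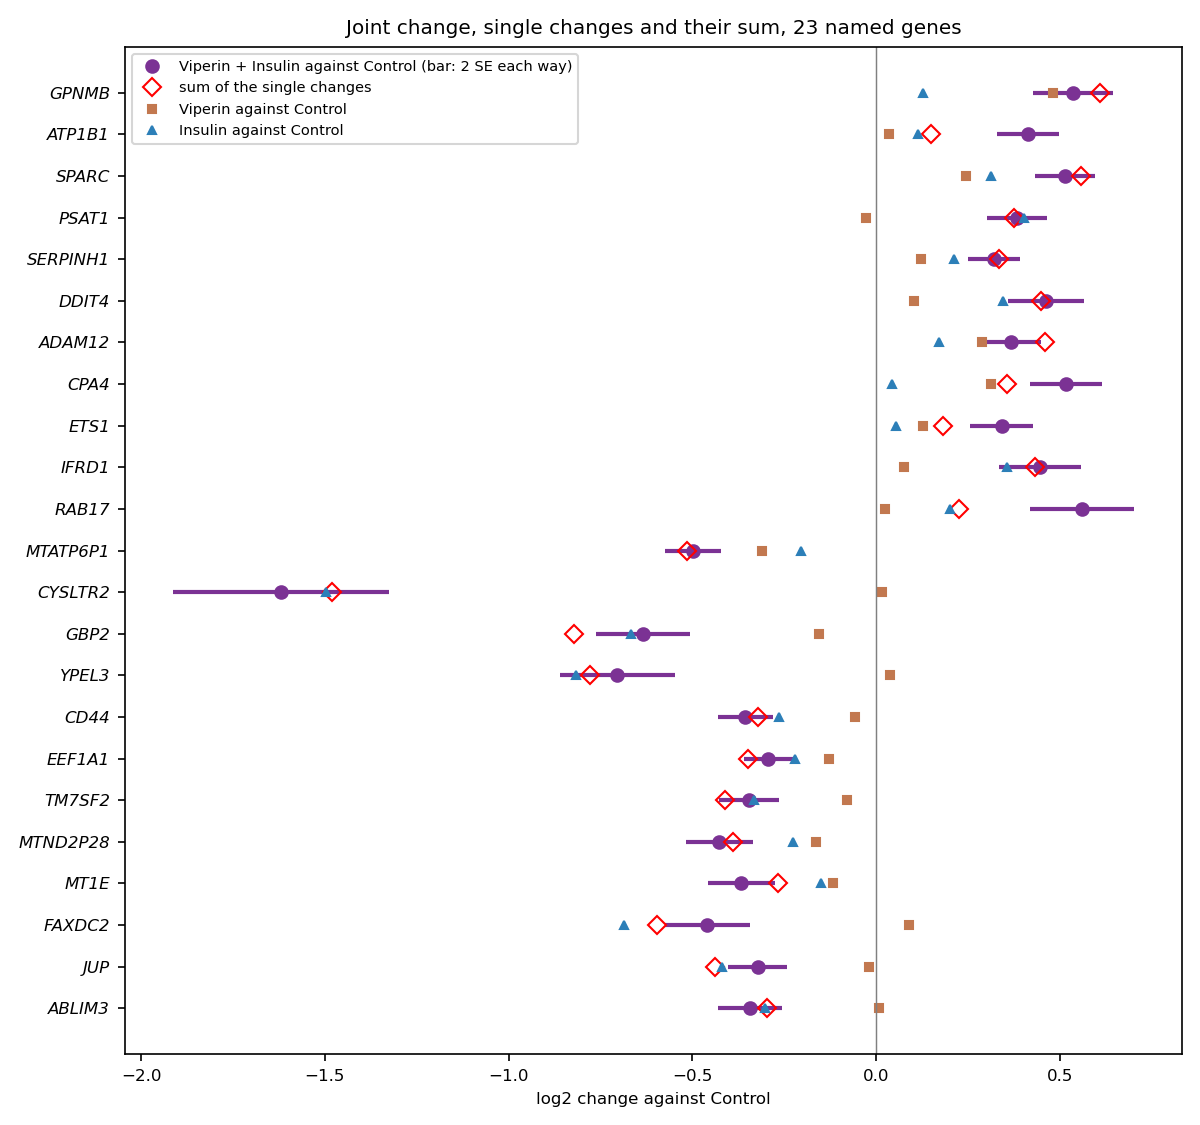
Log2 change against Control (x axis) for 11 of the 12 higher and all 12 lower genes with the smallest p in Viperin + Insulin (filled circles, with bars of 2 SE each way), the single changes under Viperin (squares) and insulin (triangles), and the sum of the single changes (open diamonds). The diamond lay close to the circle for PSAT1 (0.38 and 0.38) and MTATP6P1 (-0.52 and -0.50) and apart from it for ATP1B1 (0.15 and 0.41).

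Several called genes were higher under both treatments together than the sum of their single changes, with intervals above 0 but no adjusted p under 0.05. The intervals, here and below, are for single genes and are not adjusted for the number of genes tested. The genes are shown because their intervals lay on that side, so the intervals alone do not establish a departure. ATP1B1, the beta subunit of the sodium pump, was at 127, 117 and 127 CPM in Viperin + Insulin, 97.5, 94.5 and 93.5 CPM in Viperin, 103, 97.7 and 100.4 CPM in Insulin and 99.0, 93.5 and 86.4 CPM in Control libraries. The joint libraries lay above the other 9, and the Control range overlapped both the Viperin and the Insulin range. The joint change was 0.41 ± 0.04 (adjusted p = 4.3e-11), the sum 0.15 and the departure 0.26 (interval 0.15 to 0.38, adjusted p = 0.067). VEGFA was at 61.5, 59.9 and 66.6 CPM in Viperin + Insulin, 46.3, 44.3 and 49.1 CPM in Viperin, 52.9, 53.0 and 52.3 CPM in Insulin and 52.7, 49.6 and 44.7 CPM in Control libraries. It rose jointly by 0.36 (adjusted p = 3.8e-07) where the sum was 0.04, a departure of 0.32 (0.18 to 0.47, adjusted p = 0.053), which passed adjusted p under 0.001 without Control library 3. ADM was at 83.6, 78.4 and 72.9 CPM in the joint group, 58.5, 52.1 and 56.4 CPM in Viperin, 70.2, 63.9 and 63.2 CPM in Insulin and 58.9, 54.3 and 61.2 CPM in Control libraries, a joint change of 0.43 (adjusted p = 1.7e-07) and a departure of 0.31 (0.17 to 0.46, adjusted p = 0.15). RAB17, a small GTPase of epithelial trafficking, had a joint change of 0.56 and a departure of 0.33 (0.13 to 0.53, adjusted p = 0.46), with 24.4, 24.7 and 23.6 CPM in the joint group against 16.8, 17.6 and 14.9 CPM in Control.

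The 5 genes with the smallest p for a departure above 0 were TNC, MRPS6, BDNF, NADK2 and RPL26, all at an adjusted p of 0.053. TNC, a matrix glycoprotein, was at 189.6, 176 and 185 CPM in Viperin + Insulin, 156, 155 and 158 CPM in Viperin, 173, 156 and 151 CPM in Insulin and 172, 164 and 163 CPM in Control libraries, a departure of 0.29 (0.17 to 0.40). BDNF, a neurotrophin, was at 90.2, 82.0 and 86.5 CPM in the joint group, 79.2, 70.1 and 73.5 CPM in Viperin, 74.4, 73.3 and 75.4 CPM in Insulin and 84.3, 75.5 and 77.3 CPM in Control libraries, a departure of 0.30 (0.17 to 0.43). MRPS6, of the mitochondrial ribosome, had a departure of 0.29 (0.17 to 0.41) and RPL26, of the cytosolic ribosome, 0.41 (0.23 to 0.59). In both, Viperin alone lowered the gene (-0.25, adjusted p = 0.00023, for MRPS6 and -0.28, adjusted p = 0.0071, for RPL26) and the joint and Control libraries overlapped. NADK2, the mitochondrial NAD kinase, was at 77.8, 74.6 and 78.1 CPM in the joint group, 65.3, 61.8 and 60.6 CPM in Viperin, 64.7, 65.2 and 65.2 CPM in Insulin and 66.7, 64.4 and 62.8 CPM in Control libraries, a departure of 0.29 (0.16 to 0.41).

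In the other direction, the joint change stayed below the sum. SLC22A3, an organic cation transporter, was at 3.34, 3.64 and 3.95 CPM in Viperin + Insulin, 4.55, 4.60 and 4.81 CPM in Viperin, 4.00, 4.99 and 4.31 CPM in Insulin and 3.21, 3.36 and 2.51 CPM in Control libraries. Viperin alone gave 0.63 and insulin alone 0.56, the joint change was 0.28 (adjusted p = 0.28), and the departure was -0.90 (-1.28 to -0.52, adjusted p = 0.053). COL14A1, a collagen of fibril surfaces, was at 1.42, 1.76 and 1.40 CPM in the joint group, 1.49, 1.71 and 2.02 CPM in Viperin, 1.48, 1.28 and 1.90 CPM in Insulin and 1.00, 0.627 and 0.479 CPM in Control libraries, a departure of -1.36 (-2.02 to -0.69, adjusted p = 0.15). ALDH1A3, which makes retinoic acid, was at 669, 703 and 716 CPM in the joint group, 812, 843 and 839 CPM in Viperin, 678, 725 and 692 CPM in Insulin and 733, 738 and 702 CPM in Control libraries, a departure of -0.20 (-0.30 to -0.11, adjusted p = 0.14). CPT1A, the entry step of mitochondrial fatty acid oxidation, had -0.28 (-0.41 to -0.15) and the peptidase XPNPEP3 -0.51 (-0.74 to -0.28). No departure was called in any gene tested, so no list could hold one.

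**Figure D5:**
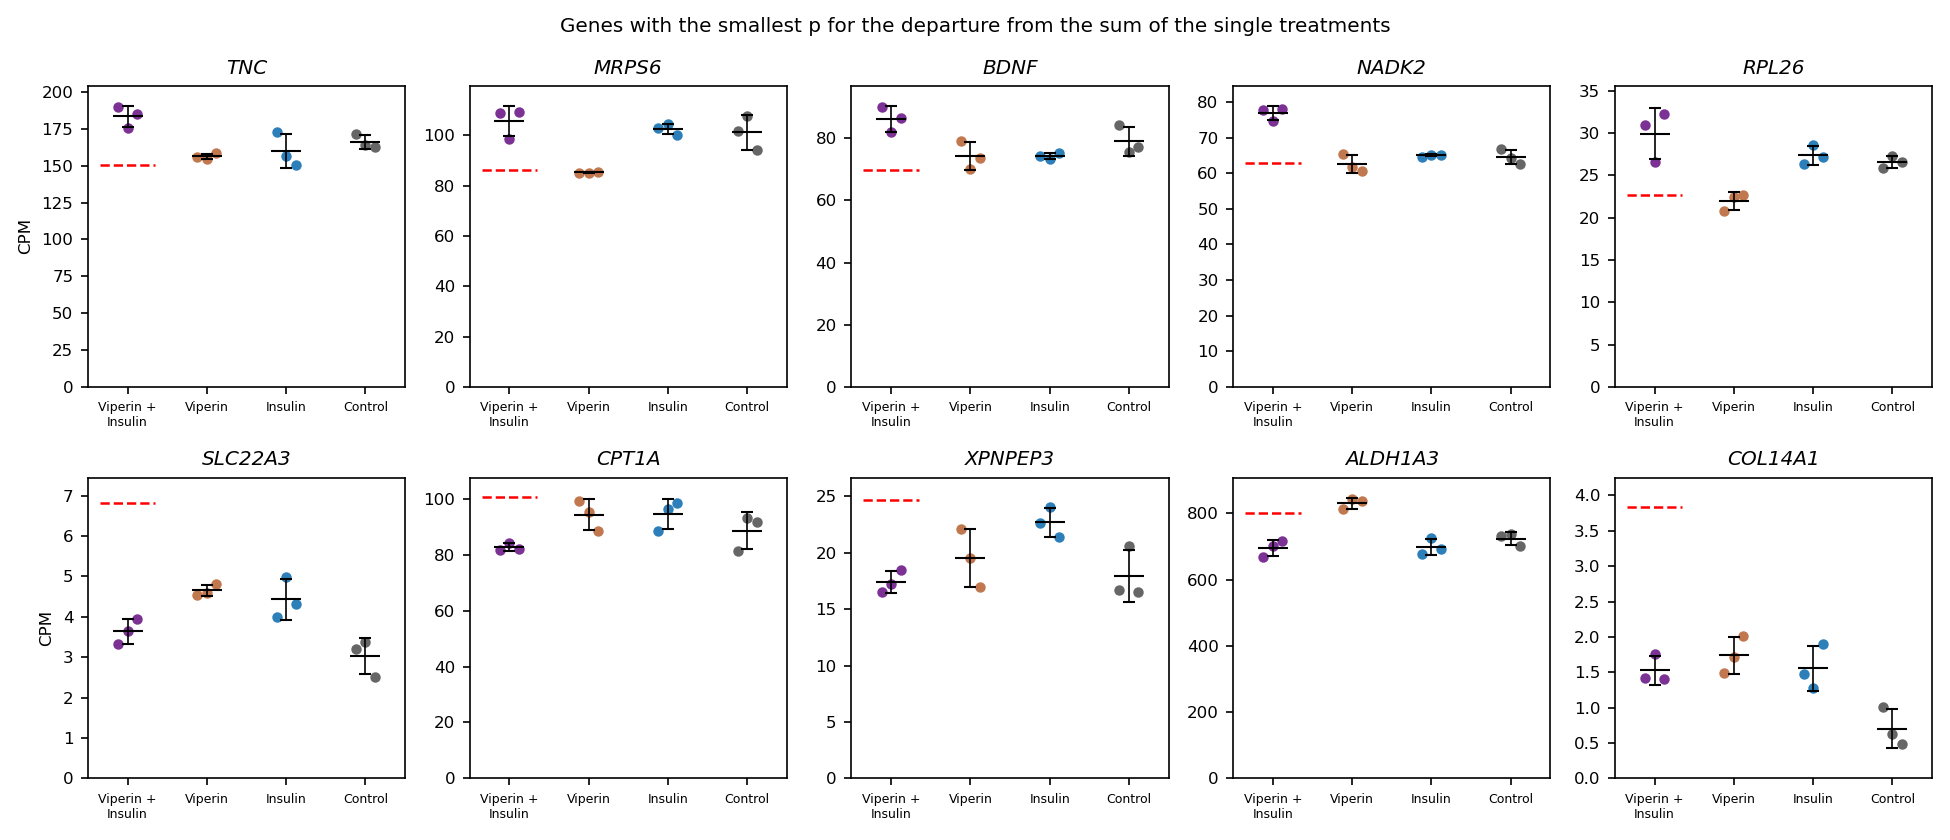
Library-scaled counts (CPM, y axis) of the 5 genes with the smallest p for a departure above 0 (top) and below 0 (bottom) in the Viperin + Insulin, Viperin, Insulin and Control libraries. Dots are libraries and bars the mean ± SD. The red dashed line is the level at which log2 changes would add, the Viperin mean times the Insulin mean over the Control mean. The joint mean lay above that line for RPL26 (departure 0.41) and below it for SLC22A3 (departure -0.90).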

How the data were processed

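Messenger RNA of 12Z cells was sequenced in 12 libraries, 3 per group. The authors trimmed reads with Trim Galore, aligned them with STAR to hg38 and counted read pairs per gene. Tool versions were not taken from the sources, and the methods name the annotation by a GENCODE release. The deposited values are raw counts per gene for 60617 genes. The reverse-strand column was used, since 94.1 to 94.3% of assigned reads lay on that strand. Rows that name no gene, 20.6 to 24.9% of pairs, were left out. GENCODE 44 gave names to 60357 genes.

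Genes with a mean count of at least 1 over the 12 libraries (23041) were fitted with edgeR 4.0.16 in R 4.3.3: TMM normalization, a robust quasi-likelihood fit of all 4 groups and contrasts for the joint change, the single changes and the departure, with Benjamini-Hochberg adjustment over all 23041 genes and a prior count of 0.125. Intervals are 95%. CPM values are counts scaled by the TMM-adjusted library size. Every p measures the spread between 3 libraries a group. The methods' tool, DESeq2, was 1 alternative (version 1.42.0). Others were limma-voom (limma 3.58.1), other scalings, filters, thresholds and strand settings, the replicate block, only the Viperin + Insulin and Control libraries, and leaving out each library. The fit was tested on simulated data. The methods adjusted p with independent hypothesis weighting, which was not used here.

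Genes were named by rule: the 12 higher and 12 lower with the smallest p at adjusted p under 0.001 and no overlap between groups, the 4 of each direction with the largest fold at a mean of 1 CPM or more, RSAD2, up to 4 members per list, and the 5 of each direction with the smallest p for the departure. Not all are given, and some withheld genes are not reported here. INSR, IGF1R, COL4A5, CCDC80, PSMC1, GAPDH, HFM1, HBB and further list members, and both promoter motifs, were picked with their values in view. The comparison, the gene lists and the rules were chosen with earlier results of these data known. RefSeq promoter windows (GRCh38.p14) were matched by symbol for 27305 genes.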

Additional observations from a re-analysis of the deposited data

Results flagged for a closer look

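Reads on the strand opposite to RSAD2, which the comparisons did not use, were counted in the libraries transfected with Viperin. The opposite-strand column held 50, 36 and 90 counts in the Viperin + Insulin libraries and 44, 45 and 14 in the Viperin libraries, and 0 in all 6 Insulin and Control libraries, which allows up to 3 counts in each. Those 6 libraries had only 69 to 183 own-strand counts, too few to give 1 opposite-strand count at the shares seen with Viperin, so their 0 is fixed by depth and shows no difference in share. The mean over the Viperin + Insulin libraries was 58.7 counts, beside own-strand counts of 18109, 15237 and 28665. The opposite-strand counts thus equalled 0.276, 0.236 and 0.314% of the own-strand RSAD2 counts of the Viperin + Insulin libraries.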

How the results depend on the processing

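The joint comparison called 163 genes higher and 186 lower. At adjusted p under 0.01 it called 381 and 402, and at 0.05, 788 and 754. Leaving out Control library 1 and Viperin library 3, a choice made after seeing the data, gave 328 higher, 352 lower and 3 departures. With no filter on low counts there were 325 lower and 4 departures. Leaving out each library in turn gave 84 to 295 higher, 97 to 286 lower and 0 to 5 departures, and 122 of the 349 genes (35%) were called in every such fit. The departures that passed 0.001, picked with the outcome in view, were above 0 for TNC, PRUNE2 and TSPYL2 and below 0 for TXNRD1 and NQO1 without Insulin library 1. They were above 0 for VEGFA, MRPS6 and RANBP3L without Control library 3, and for PLCXD3 without Control library 1 and with 2 libraries out. GNL3L was below 0 with 2 libraries out, XPNPEP3 below and RANBP3L and MTCO1P40 above 0 with no filter, and ENSG00000267904.1, at 39 to 143 counts, below 0 in both of these settings and without Viperin library 3. Other scalings, tools and strand settings kept both counts within 1.5 times. DESeq2 called 318 of the 349 (91.1%) and limma-voom 239 (68.5%). No sign reversed among the rule-named genes that were checked 1 by 1. Genes picked with their values in view were not part of that check. With unstranded counts, 348 of the 349 kept their sign. Replicate numbers did not pair the libraries (r of deviations -0.081 to 0.071 for the same number, -0.097 to 0.082 for different numbers). A replicate block gave 168 higher, 194 lower and 0 departures at 0.001, with 17 at 0.05. How depth and the number of libraries share in the precision was not tested.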

Other observations

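Lists not described above gave few calls. Of 45 cell cycle genes, 6 fell at adjusted p under 0.05 (edgeR), led by MCM5 (-0.19, adjusted p = 0.00028), a helicase subunit of DNA replication, and E2F1 (-0.20, adjusted p = 0.001), and 2 rose, CDK4 and CDK1 (0.12 each). The count of 6 was 3 without Viperin + Insulin library 1 or library 2, and the 2 that rose were not called without either of those libraries. Of 35 cytokine, chemokine and NF-kB genes, CCL2 (0.41, adjusted p = 0.029) and NFKBIA (0.22, adjusted p = 0.047) rose, and NFKB2 (-0.21, adjusted p = 0.018) and RELA (-0.13, adjusted p = 0.049) fell. Their counts ranged over 0 to 4 higher and 0 to 2 lower when single libraries were left out: none was higher without Viperin + Insulin library 1, Viperin + Insulin library 3 or Control library 2, 4 were without Control library 1, and none was lower without Viperin + Insulin library 3 or Control library 1. Of 15 genes for neuregulins and ERBB receptors, NRG1 (-0.19, adjusted p = 0.01) and NRG2 fell and LRIG3 rose, and NRG1 stood at -0.42 under Viperin (adjusted p = 2.6e-08) and 0.05 under insulin. Without Viperin + Insulin library 2 no gene of this list was called. Of 13 genes for Viperin and its partners, RSAD2 was the 1 called, with another higher without Viperin + Insulin library 2 and 1 lower without Control library 1.

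HBB, a globin, was at 2, 4 and 9 counts in the Viperin + Insulin libraries, 1, 2 and 3 in Viperin, 122, 88 and 62 in Insulin and 59, 50 and 26 in Control libraries. It changed by -3.56 jointly (adjusted p = 4.5e-06) and by -4.65 under Viperin (adjusted p = 1e-05). The plasmid sequences were not analysed here, so whether these reads come from the cells' own HBB gene was not tested, and the values stand as counts assigned to HBB. The alpha globin HBA1 had at most 1 count in any library, and ALAS2, which marks red cell precursors, had 0. HFM1, a meiotic helicase, had 0 counts in each Viperin + Insulin library, against 7, 9 and 5 counts in the Control libraries (adjusted p = 0.00061), so its fitted fold change is no bound and is not given.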
